A study of Mus musculus with 8 samples.

Results

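Transcripts of 10 genes were followed in the mouse spine: the cytokines Il6, Osm and Lif, the receptor chains Il6ra, Osmr, Lifr and Il6st (gp130), the transcription factor Stat3, and the STAT3 targets Socs3 and Pim1. Every probe that the platform annotation assigns to one of these symbols was taken, which gave 18 of the 25695 probes with values and 10 of the 16593 genes with a symbol. Spines came from 4 mice with proteoglycan-induced spondylitis (PGISp) and 4 control mice. All 8 mice were BALB/c and carried an IL4 knockout, so both groups lacked interleukin-4. PGISp mice were female, 3 months old at the first injection, and were injected on days 0, 21 and 42 with 2 mg of human cartilage extract together with 2 mg of the adjuvant dimethyl dioctadecyl ammoniumbromide. Controls carry no treatment in the labels, and their sex and age are not stated separately. Spines were taken at week 12, one per array. The affected mice were picked for severe arthritis of the peripheral joints, and the spines themselves were not scored before RNA was extracted. A single BeadChip (1) held all 8 arrays, and each spine is named here by the letter of its place on it: A, C, E and G for PGISp mice, B, D, F and H for controls.

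Cytokines of the interleukin-6 family share the receptor chain gp130, the product of Il6st. Interleukin-6 first binds Il6ra, oncostatin M brings gp130 together with Osmr, and leukaemia inhibitory factor brings it together with Lifr, which mouse oncostatin M can also use. The assembled receptor activates JAK kinases that phosphorylate STAT3, and STAT3 then drives many genes, among them Socs3, whose product binds gp130 and its kinases and shuts the signal down, and Pim1, a serine/threonine kinase that favours cell survival. Phosphorylation, the step that switches STAT3 on, is not seen by an RNA array. In bone, oncostatin M is known to act on osteoblasts and osteocytes, and macrophages, T cells and neutrophils are among its sources.

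The values are log2 signals, already stabilised for variance and normalised between arrays by the authors, a transformation that compresses the differences of dim probes. As background served the 95th percentile of 1305 probes for olfactory and vomeronasal receptors, taken array by array, which lay between 6.73 and 6.80. Above it were 13043 to 13835 probes on control arrays and 11942 to 14114 on PGISp arrays. A gene was read from its brightest probe and tested if that probe's mean passed the median of all probe means, 6.75. Markers of bone (Bglap, 11.54 to 12.78), cartilage (Acan, 6.77 to 7.16), muscle (Acta1, 14.20 to 14.48), marrow (Mpo, 12.37 to 13.64) and myelin (Mbp, 12.36 to 13.16) were above background on all 8 arrays, so each sample was a mixture of these tissues. In such a mixture more cells of a type cannot be told apart from more RNA per cell. The Y-linked Eif2s3y reached 8.57 in B and 8.33 in F, whereas the 6 remaining spines gave 6.49 to 6.92. Sex may thus differ between the groups, and its part in the changes was not tested. The calls are also given without both B and F.

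Of the 10 genes, 4 rose in PGISp spines at a Benjamini-Hochberg adjusted p under 0.1 in limma: Osm, Osmr, Stat3 and Socs3. None fell in limma, none of the 8 tested was lower at an unadjusted p under 0.05, and the methods' t-test called none lower either. Il6ra, Lifr, Il6st and Pim1 were tested and did not pass, and Il6 and Lif were too dim to be tested. Over the whole array 10.5% of the 9826 genes tested were called, and 6.11% were called higher, against 4 of the 8 tested here. In the same 4 genes the lowest PGISp spine exceeded the highest control spine, a separation that 7.65% of all genes tested showed. The 10 genes were chosen with earlier results of these data known. Comparisons of their shares with the whole array are therefore descriptions and no independent support. The median log2 fold change of the 8 genes was 0.22, and that of all genes tested was -0.005. By the size of the increase Socs3 ranked 67th, Osm 189th, Osmr 254th and Stat3 397th of 9826.

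**Figure D1:**
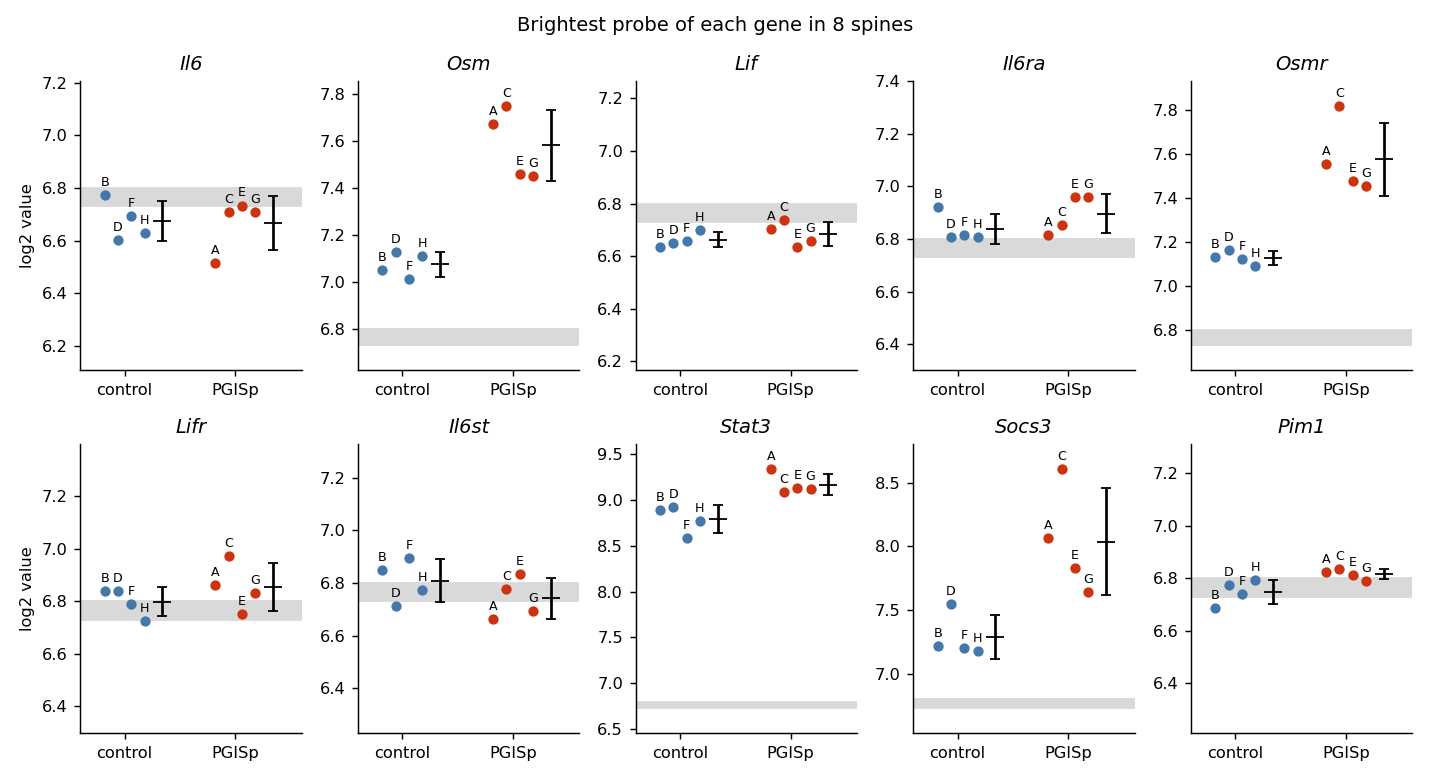
Log2 value (vertical axis, scaled for each gene) of the brightest probe of the 10 genes in the 4 control spines (blue, B, D, F and H) and the 4 PGISp spines (red, A, C, E and G). Bars give the mean and SD, and the grey band is the range of the background over the 8 arrays. Osm, Osmr, Stat3 and Socs3 separate the groups with no overlap, whereas Il6 and Lif lie in or below the band.

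Among the ligands, oncostatin M stood above background in both groups and rose. In the PGISp spines Osm read 7.67 in A, 7.75 in C, 7.46 in E and 7.45 in G, and in the controls it read 7.05 in B, 7.13 in D, 7.01 in F and 7.11 in H. The controls lay within 0.11 of each other, and the lowest PGISp spine was 0.33 above the highest of them. Means were 7.58 ± 0.15 and 7.08 ± 0.053 (SD, n = 4 each), which is a difference of 0.51 on the log2 scale (SE 0.078, 95% interval 0.33 to 0.68), or 1.42-fold, with an adjusted p of 0.00789. A second Osm probe was below background on every array and gave a log2 fold change of 0.03. With both probes averaged the change was 0.27, at an adjusted p of 0.0408.

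Interleukin-6, the founding member of the family, was at the limit of the array. Its probe read 6.51 in A, 6.71 in C, 6.73 in E and 6.71 in G, against 6.77 in B, 6.60 in D, 6.69 in F and 6.63 in H. It exceeded background in 1 control spine and in 0 PGISp spines, so no fold is given. Lif has 3 probes, of which the brightest read 6.63 to 6.74 in PGISp and 6.63 to 6.70 in control spines. None of the 3 exceeded background on any array, and their log2 differences were 0.02 each. At this sensitivity a difference of either cytokine between the groups was not detectable, which does not show that the transcripts were absent. Osm and Lif are neighbours on chromosome 11 in the RefSeq order of GRCm38.p6, and the next tested gene on the side of Osm, Castor1, differed 0.971-fold with an adjusted p of 0.729.

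Of the 4 receptor chains, only Osmr, which pairs with gp130 for oncostatin M, passed the test. It read 7.55 in A, 7.82 in C, 7.48 in E and 7.45 in G among the PGISp spines, and 7.13 in B, 7.16 in D, 7.12 in F and 7.09 in H among the controls. The groups were apart by 0.29, and the 4 controls spanned 0.075. The means, 7.58 ± 0.17 and 7.13 ± 0.031, gave a log2 fold change of 0.45 (SE 0.081, 95% interval 0.27 to 0.63), or 1.37-fold, at an adjusted p of 0.0139. Spine C was the highest for both Osm and Osmr, and A was next.

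The shared chain gp130 was dim and did not pass. Il6st read 6.66 in A, 6.78 in C, 6.84 in E and 6.69 in G, and 6.85 in B, 6.71 in D, 6.90 in F and 6.78 in H, with the groups interleaved. Its log2 fold change was -0.07 (95% interval -0.21 to 0.08, adjusted p 0.604), and it exceeded background in 3 control and 2 PGISp spines. One probe represents the gene on this array, so its level rests on that probe alone.

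Il6ra, the binding chain for interleukin-6, was above background on all 8 arrays but close to it, at 6.82 in A, 6.85 in C, 6.96 in E and 6.96 in G against 6.92 in B, 6.81 in D, 6.82 in F and 6.81 in H. Control B reached into the PGISp range. The log2 fold change of 0.06 had a 95% interval of -0.07 to 0.19 (adjusted p 0.622). Lifr, the partner of gp130 for leukaemia inhibitory factor, read 6.86 in A, 6.97 in C, 6.75 in E and 6.83 in G and 6.84 in B, 6.84 in D, 6.79 in F and 6.73 in H. Its change was 0.06 as well (95% interval -0.09 to 0.20, adjusted p 0.666), and 2 dimmer Lifr probes gave changes within 0.01 of 0. For these 3 chains the intervals reached no further than -0.21 and 0.20 on this compressed scale.

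**Figure D2:**
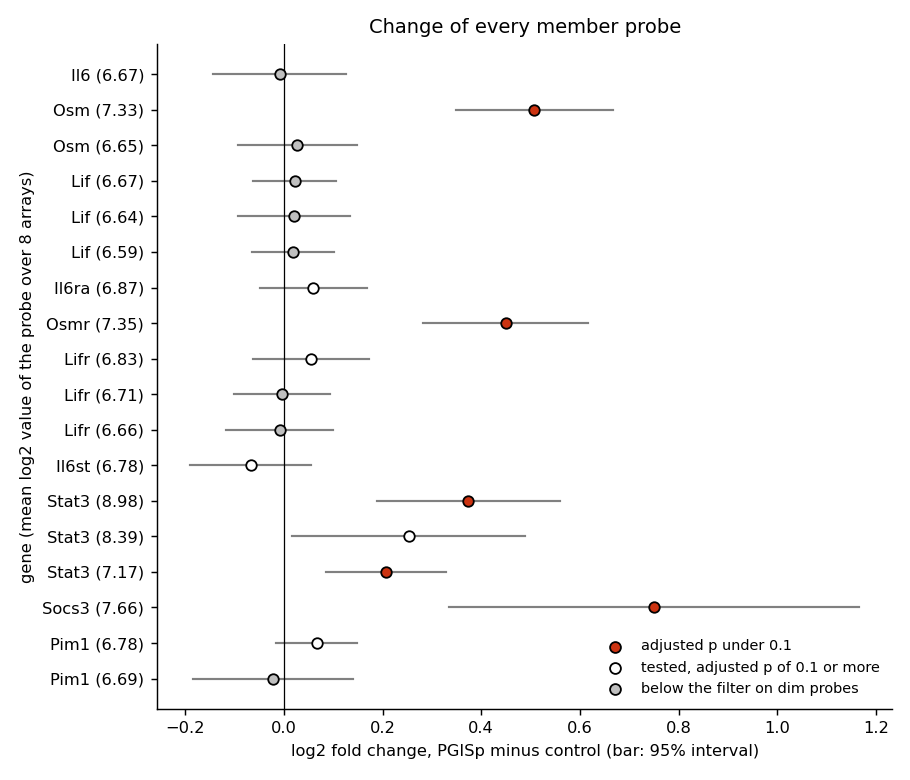
Log2 fold change, PGISp minus control, of all 18 probes of the 10 genes, with its 95% interval; each probe is labelled with its gene and its mean log2 value over the 8 arrays. Red points passed at an adjusted p under 0.1, white points were tested and did not pass, and grey points were below the filter. The 5 red points belong to Osm, Osmr, Socs3 and 2 of the 3 Stat3 probes.

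Whether 2 genes changed unequally was asked within each array, from the difference of their log2 values, by an exact two-sided permutation test over the spines for 6 pairs. With 4 spines per group the smallest p this test can give is 0.0286. Osm and Osmr, ligand and receptor, differed in their change by 0.06 (exact permutation p = 0.314, adjusted over the 6 pairs 0.314). Osmr exceeded Lifr in its change by 0.39 and Il6st by 0.52, and Osm exceeded Il6st by 0.57, each at an exact permutation p of 0.0286 and an adjusted p of 0.0429. In all 3 of these pairs the groups did not overlap. Osm and Osmr thus rose relative to the Il6st probe, and Osmr relative to the Lifr probe, both near background, where changes are compressed. Il6st passed the filter of 6.75 only through its control mean of 6.81, with a PGISp mean of 6.74. Set against probes this dim, the 3 pairs largely repeat the calls of Osm and Osmr. They do not show that the receptor chains responded unequally. Osmr and Lifr are adjacent on chromosome 15. Rictor, on the other side of Osmr, differed 1.05-fold (limma adjusted p 0.693). Fyb, the next gene beyond Rictor, was called higher, at 1.26-fold (limma adjusted p 0.0512).

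**Figure D3:**
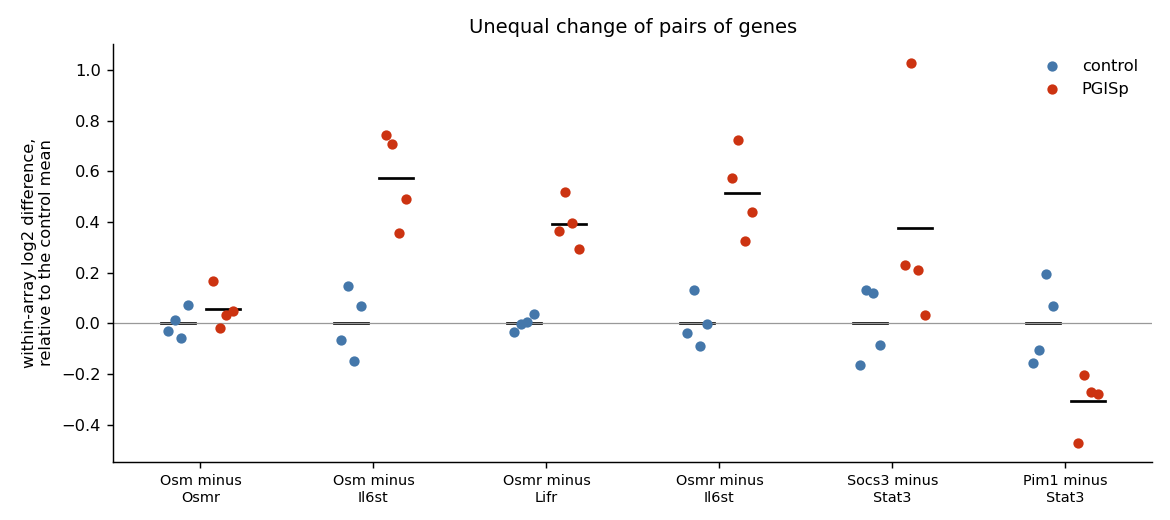
Within-array difference of log2 values for 6 pairs of genes (vertical axis, relative to the control mean of each pair), in control spines (blue) and PGISp spines (red), with the group means as bars. The groups do not overlap for Osm or Osmr against Il6st, Osmr against Lifr and Pim1 against Stat3, and they overlap for Osm against Osmr and Socs3 against Stat3.

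STAT3 carries the signal of all these receptors to the nucleus, and its own transcript rose. The brightest of 3 Stat3 probes read 9.34 in A, 9.09 in C, 9.13 in E and 9.12 in G, and 8.89 in B, 8.92 in D, 8.59 in F and 8.77 in H. Spine A stood above the other PGISp spines, and F was the lowest control. The means of 9.17 ± 0.12 and 8.79 ± 0.15 gave a log2 fold change of 0.37 (SE 0.088, 95% interval 0.18 to 0.57), or 1.30-fold, with an adjusted p of 0.0387. When every probe past the filter was tested by itself, 5.65% of 12847 probes were called higher, and 5 of the 10 probes of these genes were. The dimmest Stat3 probe rose by 0.21 without overlap (adjusted p 0.0928). The middle one read 8.59 in A, 8.66 in C, 8.45 in E and 8.35 in G against 8.48 in B, 8.32 in D, 8.27 in F and 7.98 in H. Its change of 0.25 did not pass (adjusted p 0.209), and control B lay above 2 of the PGISp spines. All 3 probes thus gave a positive difference, of unequal size. Stat5a, a related factor next to Stat3 on chromosome 11, differed 0.959-fold (adjusted p 0.725).

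Socs3, the feedback inhibitor of gp130, showed the highest fold change of the 10 genes and the widest spread. PGISp spines read 8.07 in A, 8.61 in C, 7.83 in E and 7.64 in G, and controls 7.22 in B, 7.55 in D, 7.20 in F and 7.18 in H. The PGISp spines spanned 0.97, control D stood apart above the other controls, and the gap between the groups was 0.094. Means were 8.04 ± 0.42 and 7.29 ± 0.18, a log2 fold change of 0.75 (SE 0.183, 95% interval 0.34 to 1.16), or 1.68-fold, at an adjusted p of 0.0423. Socs3 exceeded Stat3 in its change by 0.38, but spines overlapped and the exact permutation test gave p = 0.114 (adjusted 0.137). In C Socs3 was the highest of the PGISp spines and the brightest Stat3 probe the lowest, whereas the middle Stat3 probe was highest in C.

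Pim1, the other STAT3 target, did not pass the test. It read 6.82 in A, 6.84 in C, 6.81 in E and 6.79 in G against 6.69 in B, 6.77 in D, 6.74 in F and 6.79 in H, near background in both groups. Its log2 fold change was 0.07 (95% interval -0.05 to 0.18, adjusted p 0.495), and G and H met at 6.79. Pim1 changed by 0.31 less than Stat3 on the log2 scale (exact permutation p = 0.0286, adjusted 0.0429). However, Pim1 exceeded background in only 2 control spines and passed the filter of 6.752 only through its PGISp mean of 6.815. Its control mean was 6.748. With a probe this dim, where changes are compressed, the pair does not show that the 2 genes responded unequally. The second Pim1 probe, below the filter, gave -0.02.

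The DNA around the annotated starts is shown for the 3 genes that rose and have a window in the RefSeq promoter table (GRCm38.p6), since STAT3 dimers are known to bind the letters TTCNNNGAA. Each window runs from 250 bases before to 50 bases after the start, 5′ to 3′ on the strand of the gene, and capitals mark the motif, which reads the same on both strands.
Osmr, chr15:6874264-6874563, minus strand: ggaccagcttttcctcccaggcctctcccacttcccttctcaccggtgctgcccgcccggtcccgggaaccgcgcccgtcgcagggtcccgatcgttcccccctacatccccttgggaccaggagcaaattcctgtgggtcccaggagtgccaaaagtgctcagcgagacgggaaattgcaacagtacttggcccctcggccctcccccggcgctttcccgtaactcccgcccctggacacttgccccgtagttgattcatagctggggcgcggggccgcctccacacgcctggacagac
Stat3, chr11:100939491-100939790, minus strand: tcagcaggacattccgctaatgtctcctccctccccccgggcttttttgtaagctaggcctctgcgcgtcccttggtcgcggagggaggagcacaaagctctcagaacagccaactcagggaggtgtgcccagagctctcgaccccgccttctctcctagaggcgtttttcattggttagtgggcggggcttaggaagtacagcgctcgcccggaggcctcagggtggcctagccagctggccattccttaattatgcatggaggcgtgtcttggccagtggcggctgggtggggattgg
Socs3, chr11:117969317-117969616, minus strand: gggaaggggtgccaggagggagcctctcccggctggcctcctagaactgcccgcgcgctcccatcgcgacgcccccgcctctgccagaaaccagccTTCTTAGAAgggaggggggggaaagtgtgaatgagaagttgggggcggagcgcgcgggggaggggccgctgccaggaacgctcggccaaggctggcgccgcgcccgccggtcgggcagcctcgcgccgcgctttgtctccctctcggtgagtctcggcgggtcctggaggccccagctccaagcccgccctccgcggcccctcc
Of the 10 genes 9 had at least 1 window, 11 windows in all, and the motif occurred only in Socs3, as TTCTTAGAA starting 154 bases before the annotated start. Of all windows in the RefSeq set, 2726 of 32851 held it, or 8.30%. The starts used lie inside the RefSeq gene span by 655 bases for Osmr, 54 for Stat3 and 970 for Socs3, so starts further out are not covered. Of the other genes of the pathway described next, 7 of the 46 with a window held the motif, among them 2 of the 13 called higher, Irf1 and Zfp36. These are counts of genes with the motif in any of their windows, so they are not directly comparable with the share of single windows. A match describes letters and is no evidence of binding.

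The pathway around these genes was read from 5 lists with 83 genes, of which 56 could be tested. Of these, 17 rose and 1 fell, that is 30.4% higher against 6.11% of all genes tested, and the median log2 fold change of the 56 was 0.12. Most rises were in 1 list: Pim kinases and STAT3 response genes had 14 of 28 tested genes called higher, with a median of 0.32. The other 4 lists together had 3 of 28. The lists were chosen with earlier results of these data known, so this split is a description and no independent support. Timp1, an inhibitor of matrix metalloproteinases, rose 3.48-fold (adjusted p 0.0114), Lrg1, a secreted glycoprotein also stored in neutrophil granules, 1.94-fold (0.00266), and Lbp, the lipopolysaccharide-binding protein, 1.83-fold (0.0139). The acute-phase gene Saa3 read 7.32 to 8.69 in PGISp and 6.61 to 6.83 in control spines (adjusted p 0.0472). Of the controls H alone exceeded background, and Saa3 passed the filter only through its PGISp values, so no fold is given. The 14 of 28, the 17 and the 30.4% nevertheless include Saa3. Lrg1 read 10.90 in A, 10.84 in C, 10.83 in E and 10.43 in G and 9.59 to 10.002 in the controls. Batf, Bcl3, Cd14, Cebpb, Hp, Irf1, Lcn2, Mcl1, Nfil3 and Zfp36 made up the rest of the 14. The immediate-early genes Junb and Fos had log2 fold changes of 0.42 and 0.52 and did not pass (adjusted p 0.155 and 0.204), and the kinase Pim3 had -0.16 (0.273).

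Of 12 tested genes that relay the signal, 11 did not pass, and the median was -0.02. The kinases Jak1 and Jak2 had log2 fold changes of -0.04 each and Tyk2 of 0.15, and the phosphatase Ptpn11 had -0.11. The adaptor Gab1 fell, with a log2 fold change of -0.30 (adjusted p 0.0145). Gab1 read 8.24 to 8.38 in PGISp and 8.56 to 8.66 in control spines, with no overlap. Among the 12 tested inhibitors, Ptpn6, a phosphatase of blood cells (1.401-fold, adjusted p 0.0640), and Socs2, which dampens growth hormone signalling (1.39-fold, 0.0578), rose, each with overlap between the groups. Each of these calls was lost without any of 5 single spines, at adjusted p of 0.123 to 0.175 for Ptpn6 (without A, C, E, F or H) and 0.122 to 0.160 for Socs2 (without B, C, E, F or H). The list had a median of 0.02, and Cish had -0.14 (0.854).

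Few other genes listed with the gp130 family were bright enough. Of 9 further receptors 2 were tested, and Csf3r, the receptor for granulocyte colony-stimulating factor, rose 1.77-fold (adjusted p 0.00395). This is a log2 fold change of 0.82 at its brightest probe. With its probes past the filter averaged it was 0.47, and with all its probes averaged 0.30, both still called. Csf3r read 8.74 in A, 8.49 in C, 8.77 in E and 9.01 in G against 7.82 to 8.12 in the controls. Here G was highest and C lowest of the PGISp spines, the reverse of Osm, Osmr and Socs3. Csf3r also stands in the list of neutrophil markers, of which 15 of 18 tested rose. Of 9 further ligands 2 were tested: Ebi3, a subunit of interleukin-27, had a log2 fold change of 0.28 without overlap (adjusted p 0.103), and Ctf1, cardiotrophin, -0.09 (0.387).

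**Figure D4:**
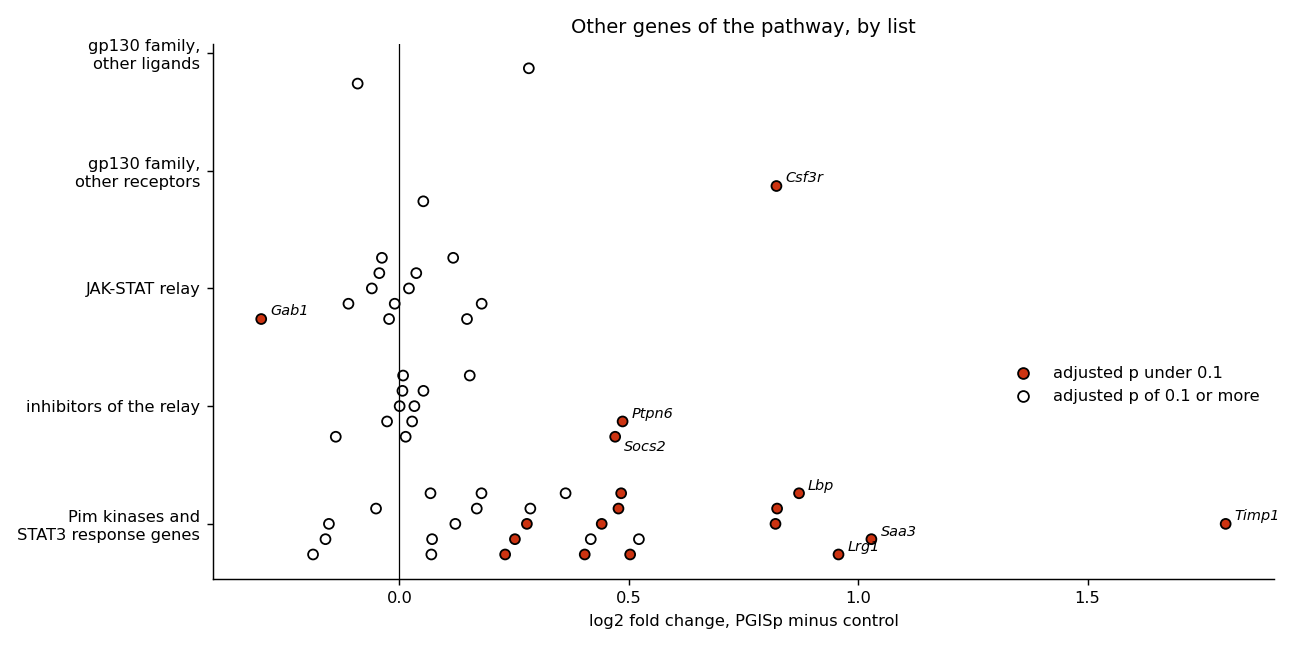
Log2 fold change, PGISp minus control, of the 56 tested genes of 5 pathway lists, 1 point per gene; red points passed at an adjusted p under 0.1, and vertical offsets within a list carry no meaning. The 14 red points of the response list extend to Timp1, while the relay list clusters around 0 except for Gab1.

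Across individual spines Osm, Osmr, Socs3 and the dim Pim1 had the same order among the PGISp mice, C above A, E and G. For Osm and Osmr, E and G lay close together, and how many of all genes share this order was not counted. The 3 Stat3 probes did not share an order: the middle one also ran C, A, E, G, the brightest A, E, G, C and the dimmest E, A, C, G. Over the 8 arrays Pearson's r was 0.972 for Osm with Osmr and 0.968 for Osmr with Socs3, and 0.828 and 0.953 after each group was centred on its mean. For Socs3 with Stat3 it depended on the probe, at 0.723 for the brightest, 0.772 for the middle and 0.638 for the dimmest one, and at 0.132, 0.565 and -0.10 after centring. Socs3 with Pim1 gave 0.771, and 0.439 after centring. The correlations are descriptions over 8 arrays that share the group difference. The genes most like Osm were Degs1, a desaturase of sphingolipid synthesis (0.994), Nfam1, an activating receptor of immune cells (0.990), and Glipr2 (0.982). Those most like Osmr were Nckap1l, an actin regulator of blood cells (0.992), Lox, which crosslinks collagen (0.991), and Mmp3, a matrix metalloproteinase (0.990). Socs3 ran closest to Ccn2, a matricellular protein (0.993), Plod2, a collagen lysyl hydroxylase (0.993), and the death receptor Fas (0.992), and the brightest Stat3 probe to D16Ertd472e (0.975), Tmem260 (0.974) and Rasa1 (0.970), the last a negative regulator of Ras.

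Markers of some other cell types were called along with these genes, and those of others were not. Over the whole array 6.11% of the 9826 genes tested were called higher. Of 19 neutrophil markers 18 were tested and 15 rose, and their summed linear signal ran from 81108 to 94015 in control and from 113680 to 125150 in PGISp spines. Of 12 tested markers of monocytes and macrophages 3 rose, with sums of 7161 to 9021 and 11889 to 14333. Of 11 tested markers of fibroblasts and synovium 5 rose, and their mean log2 level relative to all arrays was 0.60 in C, 0.18 in A, 0.15 in E and -0.03 in G, against -0.24 to -0.19 in the controls. Of 10 tested markers of osteoblasts and osteocytes 3 rose (Col1a1, Ibsp and Pdpn), at mean relative levels of 0.52 in C, 0.26 in A, 0.24 in E and -0.02 in G against -0.35 to -0.04 in the controls. The fibroblast, osteoblast and macrophage lists all had the PGISp order of Osm, Osmr and Socs3, the macrophage list with 0.19 in C, 0.15 in A, 0.13 in E and 0.053 in G. The neutrophil list, with the most calls, had another order, at 0.43 in E, 0.36 in C, 0.32 in A and 0.29 in G. Of 17 tested muscle markers 2 fell, beside 436 of all 9826 genes tested, and the median log2 fold change of the 17 was -0.43. Their mean relative level was -0.64 in A, -0.17 in C, -0.27 in E and 0.24 in G, and 0.33 in B, -0.06 in D, 0.44 in F and 0.13 in H, so the groups overlapped. Of 6 tested adipocyte markers 1 fell, with mean relative levels of -0.27 to 0.04 in PGISp and 0.07 to 0.22 in control spines. Of 6 tested T cell markers and 7 tested B cell markers 0 were called, at median log2 fold changes of 0.04 and -0.05. The mean relative level of the T cell list still separated the groups, at 0.003 to 0.075 in PGISp and -0.049 to -0.010 in control spines. That of the B cell list overlapped, at -0.12 to 0.09 in PGISp and -0.15 to 0.30 in control spines. The 7 tested markers of spinal cord and nerve also had 0 calls (median -0.12). Of 7 tested cartilage markers 0 rose and 1 fell (median -0.08). Cd14, Csf3r and Lcn2 stand both in these marker lists and in the pathway lists. The part of these cell types in the changes of Osm, Osmr, Stat3, Socs3 and the response genes was not tested.

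The calls differed in how much they leaned on single spines. Osm and Osmr passed without any one of the 8 spines, with adjusted p up to 0.0350 and 0.0504. Stat3 was lost without control F (log2 fold change 0.31, adjusted p 0.107). Socs3 was lost without control B (0.73, adjusted p 0.108), F (0.72, 0.128) or H (0.71, 0.1002), and without PGISp spine C its change dropped to 0.56 while still passing. Controls B and F, with the high Eif2s3y values, were also left out together, which leaves 2 controls. The log2 fold changes were then 0.46 for Osm, 0.45 for Osmr, 0.32 for Stat3 and 0.67 for Socs3. None of the 4 then passed in limma (adjusted p 0.120, 0.140, 0.219 and 0.313), although all 4 had an unadjusted p under 0.05, and the genes called over the whole array dropped from 1036 to 146. Saa3 was also lost without B or F (adjusted p 0.116 and 0.130), and Timp1, Lbp and Gab1 without both (0.1245, 0.140 and 0.108), whereas Csf3r and Lrg1 passed in each of these fits.

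**Figure D5:**
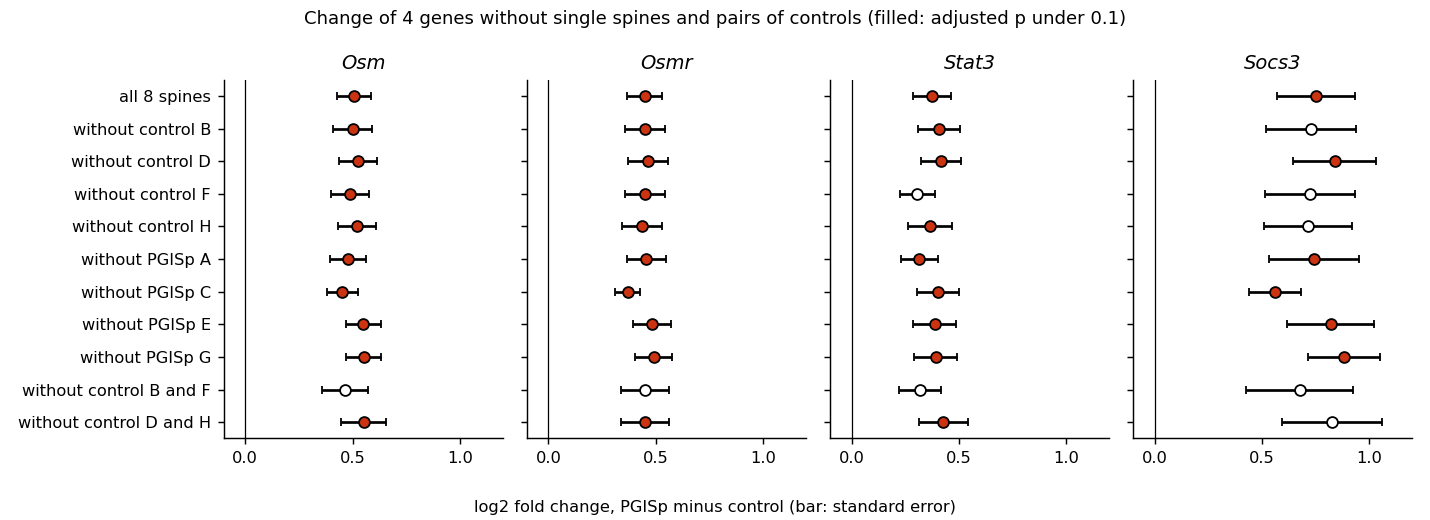
Log2 fold change, PGISp minus control, of Osm, Osmr, Stat3 and Socs3 with all 8 spines, without each single spine, and without 2 pairs of controls; bars are standard errors and filled points passed at an adjusted p under 0.1. All points lie above 0, and the 4 open points without B and F show changes of 0.32 to 0.67.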

How the data were processed

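Whole-spine RNA of 4 PGISp and 4 control mice was read on Illumina MouseRef-8 arrays. The deposited log2 values had been variance-stabilised and robust-spline normalised by the authors (lumi), after BeadStudio, and were not normalised further. A second table of raw signals has 16 columns whose names match no sample and was not used. Of 25697 probes 2 had no values, and 23976 had 1 gene symbol, 0 several and 1719 none. Symbols were updated by gene identifier. Probes with a mean above the median of probe means were kept (12847), with the brightest probe per gene (9826 genes, 9095 with a symbol). Groups were compared with limma 3.58.1 (lmFit, eBayes; R 4.3.3) at a Benjamini-Hochberg adjusted p under 0.1, following the study's false discovery rate, and 6 gene pairs by exact permutation (scipy 1.17.1). The fit was tested on simulated data. Named were all 10 genes, at most 4 called genes per pathway list by size of change, and the 3 genes most correlated with each of Osm, Osmr, Stat3 and Socs3. Irf1, Zfp36, Junb, Fos, Pim3, Cish, Ebi3, Ctf1, Jak1, Jak2, Tyk2, Ptpn11, Col1a1, Ibsp, Pdpn, neighbouring genes and the listing of all 14 response genes were added after their values were seen. The genes and lists were chosen with earlier results of these data known. Alternatives covered the filter, probe choice, variance model, array weights and position, quantile normalisation, the test, the threshold and leaving out spines. The number of arrays limits the precision.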

Additional observations from a re-analysis of the deposited data

Results flagged for a closer look

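In 4 of 36 groups of 4 spines, each tested for every probe of the 10 genes, 1 spine stood apart from the other 3 by more than 0.829 of the group's range. Chance flags about 1 group in 20. For Stat3 the highest PGISp spine, A, read 9.34, against 9.09 to 9.13 in the other 3. For Socs3 the highest control, D, read 7.55, against 7.18 to 7.22. For Il6ra the highest control, B, read 6.92, against 6.81 to 6.82. For Il6 the lowest PGISp spine, A, read 6.51, against 6.71 to 6.73, all of them below background.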

How the results depend on the processing

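With all 8 spines 4 genes and 5 probes of the oncostatin and STAT3 axis, 18 pathway genes and 1036 genes in all were called. The methods' t-test with Benjamini-Hochberg adjustment called 2 of the 4 genes (Osm and Osmr; Stat3 at 0.123 and Socs3 at 0.172), 2 probes, 9 pathway genes and 409 in all. An adjusted p under 0.05 left 570 genes and 11 pathway genes. Without controls B and F limma called 0 of the 4 genes (all 4 at an unadjusted p under 0.05), 0 probes, 4 pathway genes and 146 in all; without D and H, a setting chosen after seeing the data, 3 probes, 8 pathway genes and 567 in all, with Socs3 at 0.114. Both leave 2 controls. Leaving out 1 spine at a time gave 2 to 4 genes, 2 to 5 probes, 8 to 19 pathway genes and 396 (without F) to 1564 (without G) in all. The fits without B (618) and E (621) also moved the total by over 1.5 times. The excess of Socs3 over Stat3 ranged from 0.16 (without C) to 0.49 (without G, adjusted p 0.0686) and was 0.47 with the mean of each gene's probes (adjusted p 0.0686). Over all alternatives adjusted p ranged from 0.00125 to 0.120 for Osm, 0.00364 to 0.140 for Osmr, 0.0374 to 0.219 for Stat3 and 0.0139 to 0.313 for Socs3, and no direction of these 4 changed. Signal near background limits Il6, Lif, Il6st, Lifr and Pim1.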
